A study of Danio rerio with 11 samples.

Results

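The gene epd encodes ependymin, and its transcript was followed across all 11 arrays of a study of zebrafish embryos kept with oil emulsion. The gene was found by its symbol in the platform annotation, which gave it 1 probe set (a group of short probes read as 1 value) among 15502 probe sets. It was chosen because earlier results on these arrays had shown it to be lower in exposed embryos and higher with age in controls. Its own levels and differences are therefore given as a description, with no test. Every array carried total RNA pooled from the 30 embryos of a cup filled with 100 ml of medium. For exposure, 250 mg of emulsion coated the floor of the cup for 48 h, and controls were unexposed. Exposed groups were Gulfport at 0 to 48 h post fertilization (hpf), Gulfport, Fort Morgan and Perdido Key at 24 to 72 hpf, and Gulfport at 48 to 96 hpf, with 1 array each, collected at the end of exposure. The 6 control arrays were split into 1 of 48 hpf, 3 of 72 hpf and 2 of 96 hpf. No strain, sex or transgene is given in the labels, and each emulsion was tested as 1 pool of embryos at each age, so that a site and its cup cannot be told apart. Whether control arrays of 1 age came from separate cups or spawnings is not stated, and p-values then measure only the spread between these arrays. Exposure was visible in cyp1a, whose monooxygenase is a standard marker of aryl hydrocarbon receptor activation and which lay between 12.63 and 13.26 on the log2 scale in the 5 exposed arrays, against 6.33 to 8.76 in the 6 controls.

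Ependymin is a secreted glycoprotein first described in the cerebrospinal fluid of goldfish. In teleost fish it is made by fibroblasts of the meninges, the sheets of connective tissue around the brain, and it binds calcium. In goldfish it has been studied in memory formation and in regeneration of the optic nerve. RNA from whole embryos mixes all tissues, and fewer cells of a type and less RNA per cell cannot be told apart in these data.

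In unexposed embryos epd was higher at each later age. Its log2 signal was 7.12 in the single control at 48 hpf. At 72 hpf the controls had 9.59, 9.68 and 9.85, with a mean of 9.71 ± 0.13 (SD, n = 3). At 96 hpf they had 10.62 and 10.83, with a mean of 10.72 ± 0.15 (SD, n = 2). No 2 control ages overlapped. The 72 hpf mean was above the 48 hpf value by a log2 difference of 2.58, and the 96 hpf mean above the 72 hpf mean by 1.02, or 2.02-fold. From end to end of the series the control level differed 12.1-fold. Over the 9803 probe sets tested, the medians of these control differences were -0.03 for 72 minus 48 hpf and -0.04 for 96 minus 72 hpf.

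At 72 hpf epd was lower with each emulsion than in any control. Its log2 signal was 7.87 with Gulfport, 8.51 with Fort Morgan and 8.76 with Perdido Key emulsion, against 9.59, 9.68 and 9.85 in the controls. The highest exposed array lay 0.83 below the lowest control, and the 3 exposed arrays spanned 0.89 among themselves, against 0.26 for the 3 controls. As a share of the control level, epd stood at 27.9% with Gulfport, 43.7% with Fort Morgan and 51.7% with Perdido Key. The mean over the exposed arrays was 8.38 ± 0.46 and that over the controls 9.71 ± 0.13 (SD, n = 3 each), a log2 difference of -1.33, or 39.8% of the control level. Exposed arrays lay below every control without overlap in 6.58% of all tested probe sets, and epd is 1 of these by the way it was chosen. Of the 9803 probe sets, 7 others had a difference at 72 hpf as low as that of epd or lower, and the 5th to 95th percentile of all ran from -0.28 to 0.32. In single arrays at 72 hpf epd had the 10th lowest difference with Gulfport, the 18th with Fort Morgan and the 8th with Perdido Key.

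**Figure D1:**
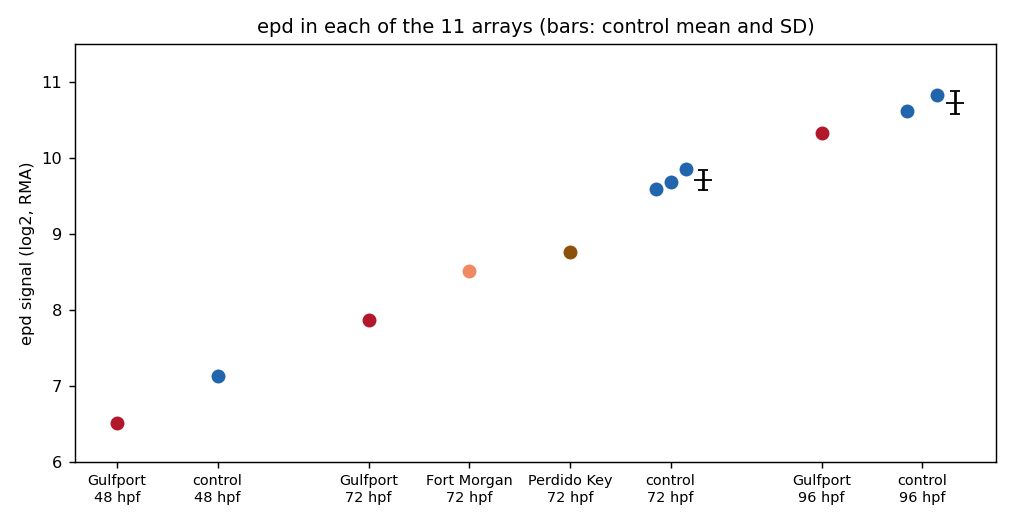
Log2 signal of epd (vertical axis) in each of the 11 arrays, grouped by age in hours post fertilization, with exposed arrays left of the controls of their age. Points are single arrays of 30 pooled embryos, and the bars beside the controls at 72 and 96 hpf give mean and SD (n = 3 and n = 2). All 5 exposed arrays lie below the controls of their age, by the most in the Gulfport array at 72 hpf (7.87 against a control mean of 9.71).

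The other exposure windows, tested with Gulfport emulsion only, showed smaller gaps. At 48 hpf the log2 signal of epd was 6.51 in the Gulfport array, against 7.12 in the control, a difference of -0.61 between 2 single arrays that has no replicate check and was the 89th lowest of all. At 96 hpf it was 10.33 in the Gulfport array, against 10.62 and 10.83 in the controls. This array lay 0.28 below the lower control, and those controls were 0.21 apart. Its difference from their mean was -0.39, or 76.3% of the control level and the 276th lowest of all, against 27.9% at 72 hpf with the same emulsion. Between the single Gulfport arrays epd was higher by 1.36 at 72 than at 48 hpf and by 2.47 at 96 than at 72 hpf. The corresponding control differences were 2.58 and 1.02. The larger difference was thus the first in controls and the second between the Gulfport arrays. These Gulfport arrays were separate pools exposed in different windows, so age and window cannot be told apart in their differences. The difference between windows was not tested for epd, because each exposed array entered its choice. With age as a factor over all 11 arrays, the log2 difference between exposed and control embryos was -0.96.

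Ordered by level from low to high, the groups ran from Gulfport at 48 hpf over the control at 48 hpf, Gulfport, Fort Morgan and Perdido Key at 72 hpf, the controls at 72 hpf and Gulfport at 96 hpf to the controls at 96 hpf. The Fort Morgan and Perdido Key arrays were neighbours 0.24 apart, less than the range of the 72 hpf controls (0.26), and do not differ beyond that spread. Neighbours elsewhere in the order were 0.28 to 0.83 apart. Each exposed array at 72 hpf thus lay between the control levels of 48 and 72 hpf. On the log2 scale the Gulfport array had reached 28.8% of the control step between these ages, the Fort Morgan array 53.8% and the Perdido Key array 63.2%. The Gulfport array at 96 hpf had reached 61.6% of the control step between 72 and 96 hpf.

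The family of epd also holds the ependymin-like genes epdl1 and epdl2 and the ependymin-related gene epdr1. Of these 3, epdl2 alone had a probe set in the annotation used here. At 72 hpf its log2 signal was 8.22 with Gulfport, 8.23 with Fort Morgan and 8.72 with Perdido Key, against 8.19, 8.39 and 8.49 in the controls. The groups overlapped, and the difference of 0.03 did not pass (SE 0.15, limma adjusted p = 0.981). With age as a factor the difference was 0.13 (limma adjusted p = 0.728). At 96 hpf epdl2 was 9.86 in the single Gulfport array, against 9.43 and 9.48 in the controls. It was thus higher than their mean by 0.41, where epd was lower. At 48 hpf it was 8.92 with Gulfport, against 8.85 in the control. In controls epdl2 was 8.85 at 48 hpf, 8.36 ± 0.15 at 72 hpf (SD, n = 3) and 9.46 ± 0.03 at 96 hpf (SD, n = 2). Between 72 and 96 hpf it rose by 1.10 (limma adjusted p = 0.000908). Such calls were made for 6.29% of probe sets in that direction and for 9.6% in either direction.

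Genes whose pattern was most like that of epd were found among the 6465 other named genes that were tested, by Pearson's r over the 11 arrays. These arrays span 3 ages and share their controls, so a gene that is higher with age and lower at 72 hpf with emulsion will tend to correlate with epd, and r is given as a description. The median r was -0.22, and 42 genes had an r of 0.95 or more. The highest r was that of gnat1, the alpha subunit of rod transducin, the G protein that couples light-activated rhodopsin to the rod phosphodiesterase (r = 0.995). It was followed by gngt1, the gamma subunit of the same G protein (0.979), and by aldh8a1 (0.978) and aldh6a1 (0.977), which encode aldehyde dehydrogenases. The next were rom1b (0.974), a gene for a protein of the rod outer segment discs, and nrgna (0.974), which encodes neurogranin, a calmodulin-binding protein of neurons. The lowest r belonged to wu:fk30a06 (-0.96), wu:fc46h12 (-0.96) and fzd7a, a Wnt receptor gene (-0.96).

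A second measure compared the size of the differences as well as their shape, as the root mean square distance between log2 profiles centred on the 72 hpf controls. Here gnat1 again came first, at 0.17, where the median gene lay at 1.55. Then came rgs9a (0.40), whose mammalian counterpart speeds the shut-off of transducin, gngt1 (0.45), ckmt2a, a mitochondrial creatine kinase gene (0.45), nrgna (0.50) and rbp4l, a retinol-binding protein gene (0.51). The 2 measures shared 3 of their 6 genes: gnat1, gngt1 and nrgna.

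**Figure D2:**
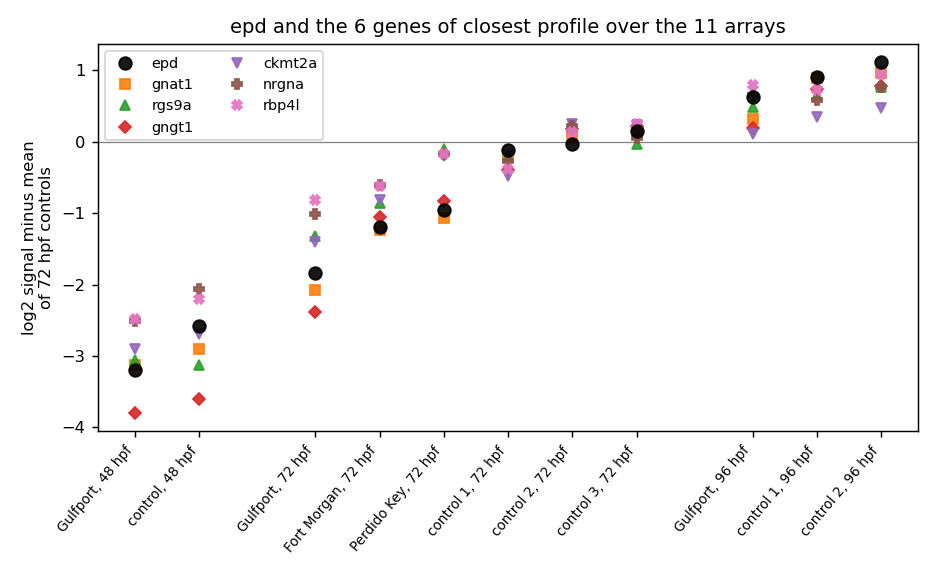
Log2 signal minus the mean of the 72 hpf controls (vertical axis) for epd and the 6 genes of closest profile, in each of the 11 arrays (horizontal axis, by age, with exposed arrays left of controls). Symbols of gnat1 lie within a root mean square distance of 0.17 of those of epd, while rgs9a, ckmt2a, nrgna and rbp4l lie nearer the controls than epd in the Perdido Key array.

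The gene gnat1 tracked epd in each group. At 72 hpf its log2 signal was 6.61 with Gulfport, 7.46 with Fort Morgan and 7.62 with Perdido Key, against 8.49, 8.78 and 8.81 in the controls. Its differences from the control mean were -2.08, -1.23 and -1.07 at these sites, beside -1.84, -1.19 and -0.95 for epd. At 96 hpf the difference was -0.61 for gnat1 and -0.39 for epd. At 48 hpf it was -0.22 for gnat1 and -0.61 for epd, the one age at which epd was lower by the larger amount. That contrast rests on single arrays, in both of which gnat1 lay below a log2 value of 6 (5.79 in the control). For gngt1 the 72 hpf differences were -2.39 with Gulfport, -1.05 with Fort Morgan and -0.82 with Perdido Key.

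The other close genes parted from epd in the Perdido Key array. There rgs9a lay 0.10, nrgna 0.17, rbp4l 0.17 and ckmt2a 0.20 below the control mean, all within the range of the 72 hpf controls, where epd was 0.95 below it. In the Gulfport array at 72 hpf these 4 genes differed from the controls by -1.32 for rgs9a, -1.01 for nrgna, -0.81 for rbp4l and -1.40 for ckmt2a. The Gulfport array was thus low for epd and for all 6 genes of closest profile, and the Perdido Key array for epd, gnat1 and gngt1.

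Other genes of the eye were looked at because gnat1 and gngt1 ranked so near epd, so the lists of rod and cone genes were chosen after the values were seen and get no test. Of 18 rod genes 8, gnat1 and gngt1 among them, were measured above the filter (a log2 value of 6 in at least 1 array), and of 18 cone genes 11. Of the 8 rod genes 3 (pde6a, rom1a and gucy2f) reached 6 in no array at 72 hpf, and the rod medians and sums at that age include them. These 3 passed the filter only through controls at 96 hpf, a group in which they were high. For rom1b and nr2e3 the means of the exposed arrays at 72 hpf were also below 6, at 5.54 and 5.68, against 6.26 and 6.03 in controls. The rod medians thus rest largely on low signals. The median log2 difference of the rod genes was -0.85 with Gulfport, -0.60 with Fort Morgan and -0.47 with Perdido Key at 72 hpf. That of the cone genes was -1.37 with Gulfport and -0.73 with Fort Morgan, but 0.02 with Perdido Key. Over all tested probe sets these medians were -0.02, -0.01 and -0.01. An example of the cone genes is gnat2, the cone transducin gene, whose difference was 0.03 with Perdido Key emulsion and -1.62 with Gulfport. The summed linear signal of the rod genes ranged from 1652 to 2261 in exposed arrays, against 2331 to 2951 in controls. This sum is weighted to gnb1b, the member of highest signal, with log2 means of 10.34 in exposed and 10.32 in control arrays. It also holds gnat1 and gngt1, which were picked for their likeness to epd. Their log2 means were 7.23 and 8.09 in exposed arrays, against 8.69 and 9.51 in controls. A lower rod sum in exposed arrays thus follows in part from the choice of genes, and the rod medians include them too. In the single Perdido Key array, where the median difference of the cone genes was 0.02, epd was at 51.7% of the control level. The part of the rod or cone genes in the difference of epd was not tested.

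For the meninges, the tissue that makes ependymin, a list of genes was taken as markers. The arrays read whole embryos, and how much of the signal of these genes comes from the meninges was not tested. Their values are thus not a measure of that tissue alone. Of its 22 genes 17 had a probe set and 14 passed the filter. Of the 14, 1 reached a log2 value of 6 in no array at 72 hpf. None of the 14 passed the limma test at 72 hpf in either direction, where 0.571% of all tested probe sets did, 0.479% higher and 0.0918% lower. The 72 hpf fit took the 3 emulsions as a single group, so differences between sites counted as spread there, for this and the other lists. An unadjusted limma p under 0.05 was found for 3 of the 14, beside 858 of all 9803 probe sets. Their median difference was -0.08, beside -0.02 over all tested probe sets and -1.33 for epd, with 9 of the 14 below 0, beside 55.4% of all tested probe sets, and 4 below every control, beside 6.58% of all. Their summed linear signal ranged from 10239 to 13154 in exposed arrays, against 11012 to 12880 in controls. This sum is weighted to rbp4, the member of highest signal, with log2 means of 12.53 in exposed and 12.66 in control arrays. The 3 members of largest difference were ptgdsb.1, which encodes a lipocalin-type prostaglandin D synthase, at 0.53 (limma adjusted p = 0.525), igfbp2a, an insulin-like growth factor binding protein gene, at -0.52 (0.447), and cxcl12b, a chemokine gene, at -0.45 (0.374). The forkhead genes foxc1a and foxc1b, needed for the meninges in mammals, differed by -0.20 and -0.05 (limma adjusted p = 0.623 and 0.923).

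With age as a factor, cxcl12b fell (log2 difference -0.50, SE 0.09, limma adjusted p = 0.0146), as 0.235% of tested probe sets did, and it was the only one of the 14 to pass among the 1.31% called in either direction. Its log2 signal was 6.87 with Gulfport, 7.17 with Fort Morgan and 7.30 with Perdido Key at 72 hpf, against 7.55, 7.71 and 7.43 in the controls. At 48 hpf it was 7.47 with Gulfport against 8.02 in the control, and at 96 hpf 6.97 with Gulfport against 7.46 and 7.57 in the controls. Exposed arrays were below the controls at all 3 ages, but its control level was highest at 48 hpf, and its r with epd was -0.09. The call was lost without either 48 hpf array or the Gulfport array at 96 hpf (limma adjusted p up to 0.0795). Between 96 and 72 hpf controls 3 of the 14 passed, 2 higher and 1 lower, where 9.6% of all tested probe sets passed, 6.29% higher and 3.31% lower. Of these, ptgdsb.2, a second prostaglandin D synthase gene, rose by 1.72 (limma adjusted p = 0.00278), aldh1a2, which encodes a retinoic acid synthesis enzyme of the meninges, rose by 0.66 (0.0170), and nr2f2, a nuclear receptor gene, fell by 0.44 (0.0463). Between these ages ptgdsb.2 thus differed by more than epd (1.02), while its difference at 72 hpf between exposed and control embryos was 0.25 (limma adjusted p = 0.855).

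Of 20 genes of fibroblasts and collagen matrix 12 were tested, with a median difference of 0.02 at 72 hpf. The collagen genes col1a1a and col1a2 differed by 0.04 and -0.06 (limma adjusted p = 0.958 and 0.947) and the matrix protein gene sparc by 0.00 (0.999). One of the 12 passed at 72 hpf, where 0.571% of all tested probe sets did (0.479% higher). This was the mesenchymal transcription factor gene prrx1a, which rose by 0.67 (SE 0.09, limma adjusted p = 0.0202). Its log2 signal was 8.73 with Gulfport, 8.64 with Fort Morgan and 8.55 with Perdido Key, against 7.93, 8.05 and 7.95 in the controls. Exposed arrays lay above every control, as in 6.92% of tested probe sets. This call held in 1 of the 6 fits that left out a 72 hpf array, the one without Perdido Key (limma adjusted p = 0.0291 to 0.123). With age as a factor prrx1a rose by 0.53 (limma adjusted p = 0.00308; 1.07% of probe sets were called higher), and this call held without each of the 11 arrays. Its r with epd was -0.91.

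Among brain cell types, the 14 neuron genes all lay below 0 at 72 hpf, beside 55.4% of all tested probe sets. Their median was -0.27, and the 12 tested genes of glia and myelin had a median of -0.11. Of these 12, 2 reached a log2 value of 6 in no array at 72 hpf. No gene of either list passed the limma test at 72 hpf or with age as a factor. Of all tested probe sets 0.571% passed at 72 hpf and 1.31% with age as a factor. At 72 hpf 3 neuron and 1 glial gene had an unadjusted p under 0.05, beside 858 of all 9803 probe sets. With age as a factor 2 of each list did, beside 1115 of all. Exposed arrays lay below every control at 72 hpf for 3 of the 14 neuron and 2 of the 12 glial genes, beside 6.58% of all. In the fibroblast list this held for 1 gene, and in the vessel and ependyma lists for 0. The largest neuron differences were those of atp1a3a, a sodium pump gene (-0.39), tubb5, a tubulin gene (-0.37), and gad1b, an enzyme gene of GABA synthesis (-0.37), with limma adjusted p-values of 0.598, 0.433 and 0.587. Those of glia were her4.2, a Notch target gene with a mean signal of 4.77 in exposed arrays and 5.24 in controls (-0.47), mbpa, a myelin gene (-0.31), and slc1a2b, a glutamate transporter gene (-0.28), with limma adjusted p-values of 0.153, 0.733 and 0.577. The median of the neuron genes was -0.49 with Gulfport and -0.35 with Fort Morgan but 0.02 with Perdido Key. The summed linear signal of the 14 neuron genes ranged from 11536 to 15691 in the exposed arrays and from 14729 to 16525 in the controls at 72 hpf. Their part in the difference of epd was not tested. For glia the sum ranged from 9806 to 11530 in exposed arrays, against 11273 to 12245 in controls. Between 96 and 72 hpf controls 1 of the 14 neuron genes rose and 2 fell, and 1 of the 12 glial genes rose and 1 fell, where 6.29% of all tested probe sets rose and 3.31% fell. Of the neuron genes gad1b rose by 0.60 (limma adjusted p = 0.0255), while neurod1, a transcription factor gene of neuronal differentiation, fell by 0.72 (0.00327) and elavl3, an RNA-binding protein gene of neurons, fell by 0.45 (0.0441). Of the glial genes mbpa rose by 1.31 (limma adjusted p = 0.00134) and fabp7a, a fatty acid binding protein gene of radial glia, fell by 0.54 (0.0156).

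**Figure D3:**
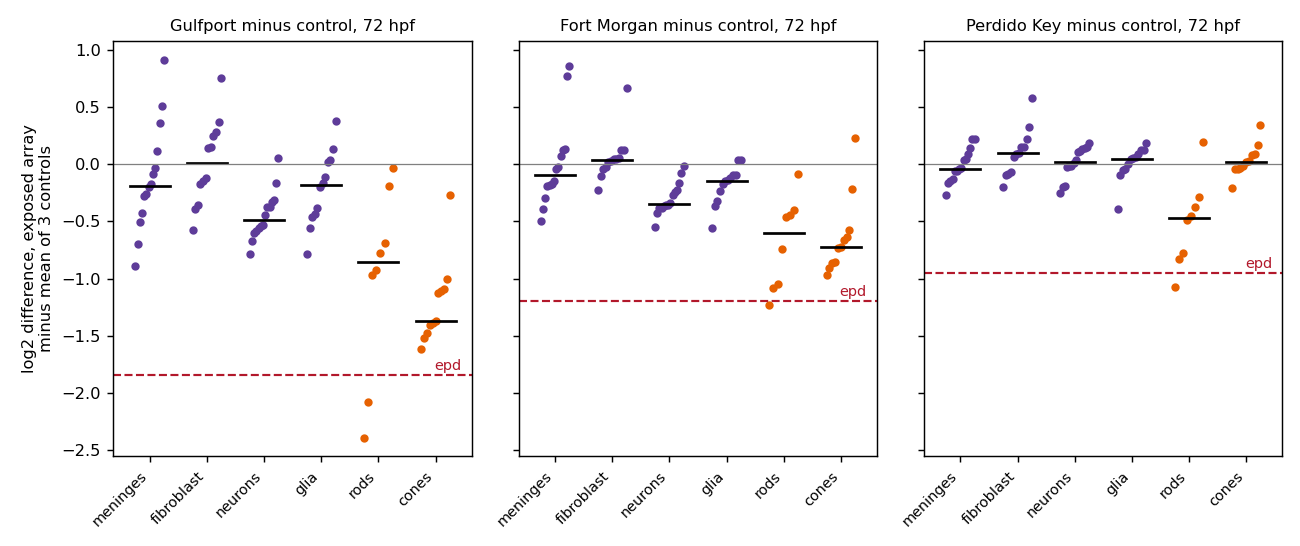
Log2 difference from the mean of the 3 controls at 72 hpf (vertical axis) for every tested gene of 6 lists, in the Gulfport, Fort Morgan and Perdido Key arrays (panels). Points are genes, black bars are list medians, the dashed line is epd, and the rod and cone lists (orange) were chosen after the values were seen. In the Perdido Key panel the medians of neuron, glial and cone genes lie between 0.02 and 0.05. Those of rod, meninges and fibroblast genes lie at -0.47, -0.04 and 0.10, and epd at -0.95.

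Vessel and mural cell genes (5 tested of 16) had a median of 0.00. Genes of ependyma, cilia and spinal fluid contact (3 of 14) had one of 0.11. None of either list passed the limma test in either comparison with controls. Of all tested probe sets 0.571% passed at 72 hpf and 1.31% with age as a factor. At 72 hpf 0 genes of these lists had an unadjusted p under 0.05, beside 858 of all 9803 probe sets. With age as a factor 1 vessel gene did, beside 1115 of all. The largest differences were those of tie1 (0.22), notch3 (0.08) and plvapb (-0.07) among vessel genes and of dnah9 (-0.17), igf2b (0.15) and rfx2 (0.11) in the other list, with limma adjusted p-values between 0.637 and 0.937. The mean log2 signal of dnah9 at 72 hpf was low, at 5.63 in exposed arrays and 5.80 in controls. This gene passed the filter only through the 72 hpf controls, so its negative difference follows in part from the filter. The nearest genes on chromosome 5 in the RefSeq assembly GRCz12tu were also read where they had a tested probe set. The channel gene panx1b, next to epd, differed by -0.01 at 72 hpf (limma adjusted p = 0.989) and the insulin gene ins, one further on, by -0.17 (0.707).

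To set epd beside other genes that are higher in older controls, probe sets were taken whose mean in the 96 hpf controls exceeded the 48 hpf control by at least 1 on the log2 scale. That choice used no 72 hpf array. The 740 probe sets other than epd had a median difference of -0.10 at 72 hpf between exposed and control arrays, and 443 of them (59.9%) lay below 0, beside 55.4% of all tested probe sets. Of the 740, 20 (2.70%) rose and 1 (0.135%) fell, beside 0.479% and 0.0918% of all tested probe sets. Their median was -0.20 with Gulfport, -0.14 with Fort Morgan and 0.06 with Perdido Key, beside -1.84, -1.19 and -0.95 for epd. These site medians are over all 740, of which 489 had a control step of 1 to 2, and were not split by control step. Without the Gulfport array the median over sites was -0.05, and without the Perdido Key array -0.17. By control step, in classes chosen after the values were seen, the median was -0.05 for the 489 probe sets with a control step of 1 to 2, -0.10 for 136 with 2 to 3, -0.30 for 56 with 3 to 4, and -0.53 for 59 with 4 or more. The step of epd was 3.60, and 2 of the 56 others of that class had a difference at 72 hpf as low as that of epd or lower. All 7 probe sets of the table with such a difference were among the 740.

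**Figure D4:**
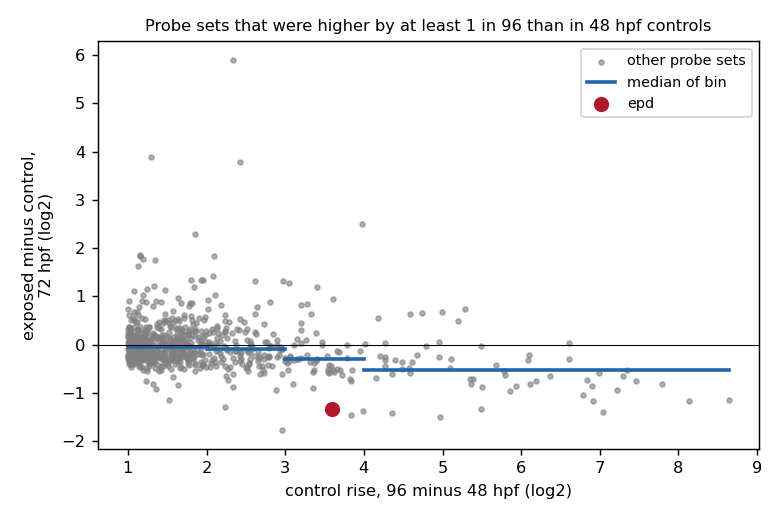
Difference between exposed and control arrays at 72 hpf (vertical axis, log2) against the difference between 96 and 48 hpf controls (horizontal axis, log2) for the 740 probe sets with a control step of at least 1, and for epd. Grey points are probe sets, blue lines are medians of classes of control step, from -0.05 to -0.53, and epd (red) lies at 3.60 and -1.33, below the median of its class.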

How the data were processed

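The authors deposited log2 signals, 1 per probe set, and the submitters' processing notes name RMA, which corrects background, normalizes between arrays and summarizes probes. Its software and version are not given in the sources used here. Array medians lay between 6.37 and 6.42. No scanner files were used, so no probe set has a detection call, and the number of arrays limits the precision. Of 15617 probe sets, 115 AFFX controls were left out, and 9803 were tested, those that reached a log2 value of 6 in any array. Symbols came from the platform annotation, updated by Entrez identifier (10711 probe sets matched, 1 symbol changed): 10795 of 15502 probe sets had 1 symbol, 135 several and 4572 none, and only those with 1 were named. The probe set of highest mean stood for a gene. No genome build is given for the array, so no coordinates are printed, and no sequence table was used here.

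Linear models were fitted to all 9803 probe sets with limma 3.58.1 under R 4.3.3 (lmFit, then eBayes), p-values were adjusted by Benjamini-Hochberg, and calls were made at 0.05. The fits were the 3 exposed against the 3 control arrays at 72 hpf, all 11 arrays with age as a factor, 96 against 72 hpf controls over the 6 control arrays, and single exposed arrays and differences between windows or sites in a fit with 1 mean per group, where a lone array is assumed to vary like the controls. The 72 hpf fit was tested on simulated data. The members and lists were chosen with earlier results of these data known. Named genes are epd, its measured family, the 6 genes of highest and 3 of lowest r, and the 6 of smallest root mean square distance. In each list they are the members that passed or, with none, the 3 of largest difference at 72 hpf. Added after their values were seen were ptgdsb.1, igfbp2a, foxc1a, foxc1b, col1a1a, col1a2, sparc, gnat2, pde6a, rom1a, gucy2f, nr2e3, gnb1b and rbp4. The neighbours of epd and the members of the tested lists (all but rods and cones) that passed between control ages were also added then. Alternatives were no filter or a minimum of 7, median centring, repeated quantile normalization, trend and robust moderation, site contrasts, a replicate block and leaving out arrays. Figures used Python 3.11.15 and matplotlib 3.10.9. Replicate numbers are shared by control arrays 1 and 2 of the 72 and 96 hpf groups.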

Additional observations from a re-analysis of the deposited data

How the results depend on the processing

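The 6 differences of epd had 40 alternative values, from median centring, repeated quantile normalization, a replicate block and leaving out single arrays. Of these, 36 moved by less than the SD of the controls. All kept their sign, but the groups compared did not overlap for epd, so leaving out an array could not have reversed it. Leaving out 1 array gave -1.52 to -1.07 for exposed minus control at 72 hpf (-1.07 without Gulfport, -1.52 without Perdido Key), -1.15 to -0.78 with age as a factor (-0.78 without Gulfport at 72 hpf, -1.15 without Gulfport at 96 hpf), 0.91 to 1.12 for 96 minus 72 hpf controls, 2.51 to 2.64 for 72 minus 48 hpf controls, and -0.50 to -0.28 for Gulfport at 96 hpf. A single epd probe set meant that no mean over probe sets could be run. The limma count at 72 hpf was 56 (47 higher), 129 (92 higher) as the mean of site contrasts, and 23 to 83 when 1 array was left out (23, 24 and 32 without control replicate 1, 2 or 3, and 28 without Fort Morgan). With age as a factor it was 128, and 81 to 124 without 1 array (81 without Gulfport at 96 hpf). In that fit, leaving out the 48 hpf arrays and Gulfport at 96 hpf was added after the data were seen. Between 96 and 72 hpf controls it was 941, and 382 to 788 without 1 array (613 and 551 without 72 hpf control replicate 1 or 2, 500 and 382 without 96 hpf control replicate 1 or 2). Calls of single list genes between these control ages were not checked by leaving out arrays, and those near the threshold may not hold. With a replicate block the count was 784 and the epd difference 1.09; arrays with the same number share only a number (correlation of their deviations -0.07), and the block changed no direction. The median of the control-rising probe sets was -0.17 to -0.05 without 1 array. Of the 6 genes of highest r, 1 (gnat1) was also among the 6 listed for highest Spearman's rho and among the 6 of highest r over deviations from the control mean of each age. The rho of gngt1 and aldh6a1 (0.991) equalled that of slc25a3a and krt94, which took the last places of the rho list. These ties were split only by the order of the probe sets, so the overlap for rho depends on that order. With 1 to 3 arrays a group, the number of arrays limits the precision, and the 48 hpf difference rests on single arrays.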

Other observations

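When age is taken out, by correlating deviations from the control mean of each age over the 11 arrays, the 6 named genes nearest epd were zgc:64106 (r = 0.984), serpina1l, a serine protease inhibitor gene (0.975), cpxm1a (0.975), cpa5, a carboxypeptidase gene of the exocrine pancreas (0.974), gnat1 (0.972) and tubb2, a tubulin gene (0.962). Of these, cpa5 differed at 72 hpf by -1.49 with Gulfport, -0.81 with Fort Morgan and -0.57 with Perdido Key, the same order of sites as epd, while its control step between 72 and 96 hpf was 3.20, against 1.02 for epd. The trypsin gene prss1 shared the rank order of epd over all 11 arrays (Spearman's rho = 1.00), as did gnat1, phyhd1 and apoda.2. The gene cpxm1a, by contrast, differed by -0.09 between 96 and 48 hpf controls, and its r with epd over the raw values was 0.30. Its 72 hpf differences were -0.38 with Gulfport, -0.20 with Fort Morgan and -0.20 with Perdido Key, beside -1.84, -1.19 and -0.95 for epd. A high r over deviations thus does not mean a difference of like size. These genes were picked from 6465 by likeness, and the values carry no test.

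Of the 61 tested genes of the lists other than rods and cones, none passed for a difference of the Gulfport effect between 72 and 96 hpf (lowest limma adjusted p = 0.253, 15 with an unadjusted p under 0.05), where 0 of all 9803 probe sets did. Between Gulfport and the other emulsions at 72 hpf none of the 61 passed either (lowest limma adjusted p = 0.271), where 3 of all probe sets did. Of the 61, 16 had an unadjusted p under 0.05 there. Unadjusted counts over all probe sets were not taken for these contrasts, so the 15 and 16 have no background beside them.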
